A study of Oryza sativa Japonica Group with 6 samples.

Results

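Sugar transporters are the membrane proteins that move sucrose, glucose and other simple sugars into and out of cells and organelles. On the rice cDNA array used here they were taken as the probes whose description names a sucrose, monosaccharide, hexose, glucose or other sugar transporter, or an MtN3 (SWEET) protein, with the plastid phosphate translocators left out. That text rule matched 39 of the 21495 non-control probes. A match through the species name in "Sweet potato mitochondrial F1-ATPase delta subunit" (AK070990) is not a transporter, so 38 sugar transporter probes remained, of which 35 gave enough signal to be tested. Each probe stands for its own cDNA, and the description is a best match that is often from another species.

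Most plant sugar uptake carriers of the plasma membrane are symporters that draw on the proton gradient: the SUT (SUC) family carries sucrose and the STP family, called MST in rice, carries hexoses such as glucose. SWEET proteins, first described as the nodulin MtN3 in Medicago, let sugar pass along its own gradient and often act in export. Other relatives sit in the vacuolar or plastid membrane. A coleoptile that grows under water depends on sugar released from the seed's starch and feeds it into glycolysis and fermentation.

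The compared tissue was the coleoptile, the sheath around the first leaf of a grass seedling, from the rice *rad* mutant, described by the series as reduced in alcohol dehydrogenase activity, and from wild type. Both were of the cultivar Kinmaze and both had germinated under submergence in bottles of deionized water, and coleoptiles were cut from frozen sections by laser microdissection. The labels used here give neither the age at harvest nor the lesion behind *rad*. Mutant and wild-type RNA were hybridised together, and each of 3 replicates was run in both dye orientations, giving 6 two-colour arrays. Values below are log2 ratios of mutant over wild type, averaged over the dye pair and then over replicates (mean ± SD, n = 3), unless a signal is named. Whether the 3 replicates were grown as separate cultures is not stated in the labels. The p-values therefore measure only how far these samples spread, and that spread may be technical. In bulk tissue, fewer cells of a type and less RNA per cell cannot be told apart.

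Over the whole array 19947 probes were tested, and between 90.4% and 95.7% of probes were well above background in each channel. Of all tested probes 14.6% were called higher in the mutant and 10.1% lower. Text-pattern lists were used for 5 tissues or cell states that could be cut along with the coleoptile. For dividing cells, 23 of 41 tested probes were lower (56.1%) and 0 higher, with summed signals of 217900 to 239300 in the mutant against 372500 to 380400 in wild type. Most of these probes were caught by the word kinesin, among them FRA1 (AK100974, lower) and kinesin light chains (AK067708 and AK111396, not called). Not all need mark dividing cells. For the photosynthetic leaf, 13 of 38 were lower (34.2%) and 1 higher, with sums of 117100 to 137500 in the mutant against 147300 to 169400 in wild type. Among the 13 lower, AK061410, AK100602 and AK101334 are Rubisco subunit binding-proteins by description, caught by the word rubisco. AK061410 had the largest fall of the list (-0.78). Most chlorophyll a/b-binding probes were not called. Root-specific probes were lower in 2 of 6 cases (33.3%), with sums of 108200 to 245200 in the mutant and 235600 to 377100 in wild type. Of 10 storage protein probes 0 passed in limma, and 1 had an unadjusted p under 0.05 (sums of 5123 to 5350 in the mutant and 5130 to 6427 in wild type, which overlap). Such a p was reached by 7637 of all 19947 tested probes. The alpha-amylase pattern, meant for the scutellum and aleurone of the seed, had 1 of 16 tested probes higher and 2 lower (12.5%). It also caught an inhibitor (AK106723, not called), and AK065152, among the 2 lower, is described by an Arabidopsis alpha-amylase. Its match to those seed tissues is thus loose. The summed signal of the list was 303300 to 336900 in the mutant against 188700 to 247700 in wild type. It came almost wholly from AK069098, described only as Ramy1. No gene was taken as a marker of the coleoptile itself. The part of these tissues in the results on sugar transporters was not tested.

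In the *rad* coleoptile some sugar transporter cDNAs were higher than in wild type, others were lower, and most differed little. Of the 35 tested probes 5 were higher in the mutant (14.3%) and 4 were lower (11.4%), at a limma adjusted p under 0.05. Over all tested probes 14.6% were called higher and 10.1% lower, so the shares among sugar transporters lay near the background in both directions. Called either way were 25.7% of the transporters, against 24.7% of all tested probes. Their median ratio was -0.022, against -0.0097 over all tested probes. The median size of change, sign aside, was 0.050 for the transporters and 0.095 for all tested probes.

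The 5 higher cDNAs were a tomato HT2-like hexose transporter, a citrus Sut-like sugar transporter, a grape VvSUC12-like sucrose transporter, and cDNAs described as OsMST2 and OsMST3. The 4 lower cDNAs were an Arabidopsis At5g18840-like sugar transporter, a rice putative sugar transporter, a barley stp1-like hexose transporter and a cDNA described as OsMST1. Each of the 9 kept its sign on every one of the 6 arrays, which a call made from 3 replicates nearly demands. Leaving out replicate 1 or replicate 2 ended 7 of the 9 calls. Only those of the HT2-like and At5g18840-like cDNAs held without any 1 replicate. Processed signals of the genotypes did not overlap in 10 of the 35 tested transporters, among them AK099395 and AK101913, which were not called. Where signals are said below not to overlap, they come from the same arrays as the calls. The share of such probes over the whole array was not computed.

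**Figure D1:**
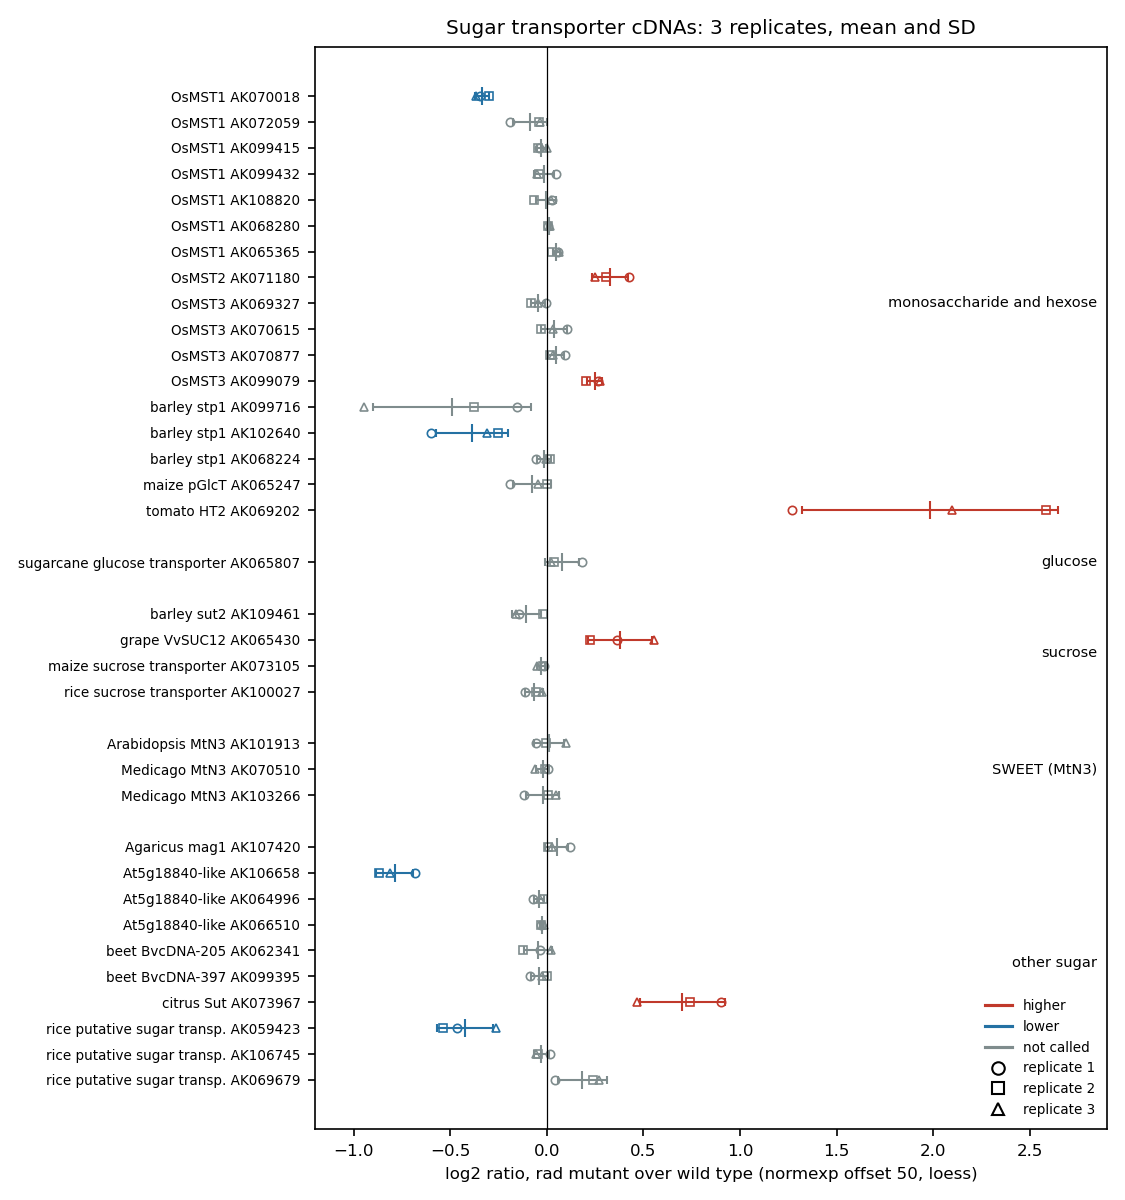
Log2 ratios of *rad* mutant over wild type for the 35 tested sugar transporter cDNAs (rows, by family), with circles, squares and triangles for replicates 1, 2 and 3 and a bar for the mean and SD (n = 3). The HT2-like cDNA AK069202 stands apart at 1.98, whereas 23 of the 35 means lie within 0.1 of 0.

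The largest change was a rise in the HT2-like hexose transporter (AK069202). HT2 of tomato belongs to the STP family of proton-coupled hexose carriers. Its scanner-processed signal was 697, 2080 and 1218 in mutant replicates 1, 2 and 3, against 108, 103 and 70.7 in wild type. Every mutant value was above every wild-type value, and the mutant signal varied between replicates far more than the wild-type signal did. The log2 ratio was 1.27, 2.58 and 2.10 in the 3 replicates, with a mean of 1.98 ± 0.66 (SD), or 3.96-fold (adjusted p = 0.0132, 95% interval 1.27 to 2.70). On single arrays it ran from 1.24 to 2.67. This was the only sugar transporter with a mean change of at least 2-fold on this scale, and its rise ranked 89 among all tested probes. The wild-type signal was dim, well above background on 5 of 6 arrays, and the constant of 50 added in background correction pulls ratios of dim probes towards 0. Without that constant the mean was 3.10 (8.55-fold), and from the scanner-processed signals 3.71 (13.1-fold). The call held without any 1 replicate, with the largest adjusted p, 0.04998, when replicate 2 was left out.

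**Figure D2:**
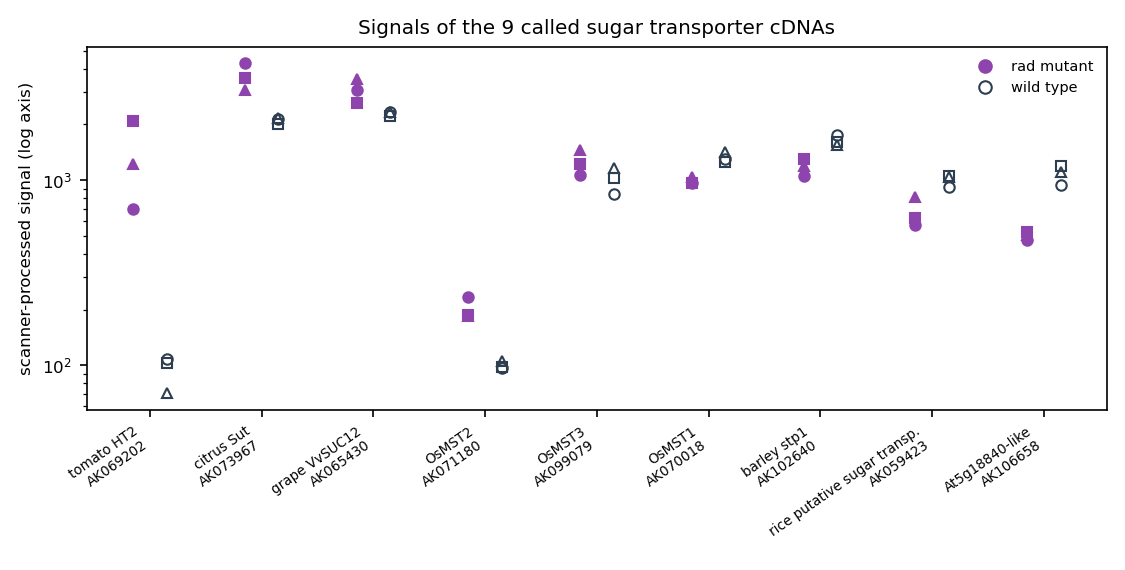
Scanner-processed signals (log axis) of the 9 called sugar transporter cDNAs, with filled symbols for the *rad* mutant to the left and open symbols for wild type to the right, circles for replicate 1, squares for replicate 2 and triangles for replicate 3. AK069202 reads 697 to 2080 in the mutant and 70.7 to 108 in wild type, and in AK099079 the groups overlap although each replicate is higher in the mutant.

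The 7 cDNAs described as the rice gene OsMST1 did not all give the same result: 1 fell and the others were not called. Rice MST proteins are monosaccharide carriers. AK070018 was lower in the mutant, with signals of 961, 965 and 1042 in the mutant against 1304, 1258 and 1416 in wild type, groups that do not overlap. Its ratios of -0.35, -0.30 and -0.36 gave a mean of -0.34 ± 0.03, or 1.26-fold lower in the mutant (adjusted p = 0.00865). The call was lost without replicate 1 (adjusted p = 0.0563) and without replicate 2 (0.0614). The other 6 (AK065365, AK068280, AK072059, AK099415, AK099432 and AK108820) lay between -0.09 and 0.05 and none was called. A shared description thus covered cDNAs with different ratios.

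The OsMST2 cDNA and 1 of the OsMST3 cDNAs were higher. The OsMST2 cDNA (AK071180) had signals of 235, 188 and 185 in the mutant against 96.7, 98.1 and 105 in wild type, again without overlap. Its ratios were 0.43, 0.31 and 0.25, with a mean of 0.33 ± 0.09 (adjusted p = 0.0167). It too was dim, and the size depended on background correction: 1.26-fold with the added constant, 1.69-fold without it and 2.01-fold from scanner-processed signals. Of 4 cDNAs described as OsMST3, a carrier known to take up glucose, 1 rose and 3 were not called. In AK099079 the signals were 1070, 1223 and 1464 in the mutant and 839.5, 1030 and 1162 in wild type. Levels overlapped between the genotypes, but within each replicate the mutant was higher, with ratios of 0.27, 0.20 and 0.27 (mean 0.25 ± 0.04, 1.19-fold, adjusted p = 0.0164). The other OsMST3 cDNAs read -0.04 ± 0.04 (AK069327), 0.04 ± 0.07 (AK070615) and 0.05 ± 0.04 (AK070877). Without replicate 1 the calls of AK071180 and AK099079 were lost (adjusted p = 0.0648 and 0.0814), and likewise without replicate 2 (0.0967 and 0.0905).

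A set of 3 cDNAs resembled the barley hexose transporter gene stp1. AK102640 was lower, with signals of 1056, 1306 and 1198 in the mutant against 1758, 1611 and 1559 in wild type. Mutant values all lay below those of wild type, and the ratios of -0.60, -0.25 and -0.31 averaged -0.39 ± 0.19, 1.31-fold lower in the mutant (adjusted p = 0.0356). This was the weakest of the 9 calls: it was lost when any 1 replicate was left out (adjusted p between 0.0597 and 0.0909) and when only the mutant-in-Cy3 hybridisations were fitted (-0.26, adjusted p = 0.103). AK099716 read -0.15, -0.37 and -0.95 in the 3 replicates and was not called (-0.49 ± 0.41, adjusted p = 0.108). It was negative on all 6 arrays but varied widely in size. With all 6 arrays fitted and the replicate as a block, AK099716 was called lower (adjusted p = 0.0165). That fit took a correlation of only 0.21 between arrays of a replicate, so it counts colour swaps partly as separate samples. With a dye term added the correlation was 0.63 and the adjusted p 0.0226. The remaining stp1-like cDNA, AK068224, read -0.01 ± 0.04.

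The plastid and glucose carriers were not called. A cDNA like maize pGlcT (AK065247), the plastid glucose translocator that exports glucose from starch breakdown, read -0.08 ± 0.10 (adjusted p = 0.335). A sugarcane glucose transporter-like cDNA (AK065807) read 0.08 ± 0.09 (adjusted p = 0.307), with 0.18, 0.04 and 0.02 in replicates 1, 2 and 3. Among the 17 monosaccharide and hexose transporter probes 3 rose and 2 fell, so 29.4% were called, against 24.7% of all tested probes.

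Sucrose transporters showed 1 call. The VvSUC12-like cDNA (AK065430) named after a grape sucrose carrier had signals of 3089, 2626 and 3521 in the mutant against 2336, 2225 and 2324 in wild type. The genotypes did not overlap. The ratios of 0.36, 0.22 and 0.56 gave a mean of 0.38 ± 0.17, or 1.30-fold (adjusted p = 0.0299), and the call was lost without replicate 1 (adjusted p = 0.136) and without replicate 2 (0.0661). A cDNA matched to a rice sucrose transporter mRNA without a gene number (AK100027) read -0.06 ± 0.05 (adjusted p = 0.286). Its mean was small but negative on all 6 arrays. The barley sut2-like cDNA (AK109461) read -0.11 ± 0.08 (adjusted p = 0.168) and a maize-like sucrose transporter (AK073105) -0.03 ± 0.02 (adjusted p = 0.584). The OsSUT3 probe (AK071452) was well above background on 1 of 6 arrays in the mutant and 1 of 6 in wild type, so it was not tested and no ratio is given.

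SWEET-type transcripts showed no call in limma, and 0 of 3 had an unadjusted p under 0.05. Over all tested probes 7637 of 19947 had one, so a count among 3 probes says little. The MtN3-like cDNAs AK070510 and AK103266 read -0.02 ± 0.03 and -0.02 ± 0.09. An Arabidopsis At5g23660-like cDNA (AK101913) read 0.01 ± 0.08; that Arabidopsis gene encodes SWEET12, a sucrose exporter. The 95% intervals of the 3 ran from -0.15 to 0.14 in all, so changes of the size seen in AK069202 lie outside them on this scale. AK070510 was well above background on 5 of 6 arrays in each genotype. All 3 probes were dim, with signals between 65.2 and 141 in the mutant and between 58.6 and 158 in wild type, where the added constant compresses ratios.

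The remaining sugar transporters held a rise and a pair of falls. A cDNA like the Sut sugar transporter of citrus (AK073967) rose, with signals of 4270, 3544 and 3068 in the mutant against 2141, 2019 and 2158 in wild type. Replicate 1 showed the widest gap and replicate 3 the narrowest, with ratios of 0.90, 0.74 and 0.47 (mean 0.70 ± 0.22, 1.63-fold, adjusted p = 0.0129). This call was lost without replicate 1 (adjusted p = 0.0629) and without replicate 2 (0.0784).

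The At5g18840-like cDNA AK106658 fell most. At5g18840 of Arabidopsis belongs to the ERD6-like group of sugar carriers. Signals were 473, 525 and 506 in the mutant against 941, 1199 and 1107 in wild type, well apart in every replicate. The ratios of -0.68, -0.87 and -0.81 averaged -0.79 ± 0.10, 1.73-fold lower in the mutant (adjusted p = 0.00431). From the scanner-processed signals the mean was -1.10, or 2.15-fold lower. This call held under each of the 16 alternatives tried for it, with adjusted p up to 0.0337. The other 2 cDNAs with the same description read -0.04 ± 0.03 (AK064996) and -0.03 ± 0.01 (AK066510), and neither was called.

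Among 4 cDNAs described as a rice putative sugar transporter, AK059423 was lower. Signals were 576, 622 and 815 in the mutant and 917, 1054 and 1038 in wild type. Mutant levels lay below all wild-type levels, least so in replicate 3, and the ratios of -0.47, -0.54 and -0.26 averaged -0.42 ± 0.14, 1.34-fold lower in the mutant (adjusted p = 0.0181; 0.106 without replicate 1 and 0.0943 without replicate 2). AK069679 tended the other way without passing, at 0.04, 0.24 and 0.27 (mean 0.18 ± 0.13, adjusted p = 0.0989). In the fit of 6 arrays with the replicate as a block it was called higher (adjusted p = 0.0314, or 0.0324 with a dye term). Such a fit counts colour swaps partly as separate samples. AK106745 read -0.03 ± 0.04, and AK073216 was well above background on 2 arrays in the mutant and 1 in wild type and was not tested.

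The last 3 tested carriers were not called. The sugar beet-like cDNAs AK062341 and AK099395 read -0.05 ± 0.07 and -0.04 ± 0.05, and a cDNA whose best match is a mushroom sugar transporter (AK107420) read 0.05 ± 0.06. The beet-like AK071660 was not well above background in either genotype on any of the 6 arrays and was not tested. The sweet potato-described ATPase subunit, which is no carrier, was lower in the mutant at -0.23 ± 0.10 (AK070990, adjusted p = 0.0389).

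Most sugar transporters changed little, within what these arrays resolve. Of the 35 means 23 were under 0.1 in size (65.7%), against 51.7% of all tested probes, and 1 was at least 1 (2.86%), against 2.77%. Between 0.1 and 0.25 lay 8.57% of the transporters and 24.7% of all tested probes. From 0.25 to 0.5 it was the other way, with 17.1% of the transporters and 14% of all tested probes. From 0.5 to 1 the shares were 5.71% and 6.89%. No test was made of these shares, and the transporters are few. Of the 26 that were not called, 24 had a 95% interval wholly within 0.25 of 0, a change of 1.19-fold, on the scale with the added constant. The exceptions were AK099716, whose interval reached -0.94, and AK069679, whose interval reached 0.35. Several of the 24 were dim, such as AK073105 and AK070615, and there the constant compresses ratios. Calls and non-calls overlapped in size: the smallest called mean was 0.25 (AK099079) and the largest not called was -0.49 (AK099716).

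**Figure D3:**
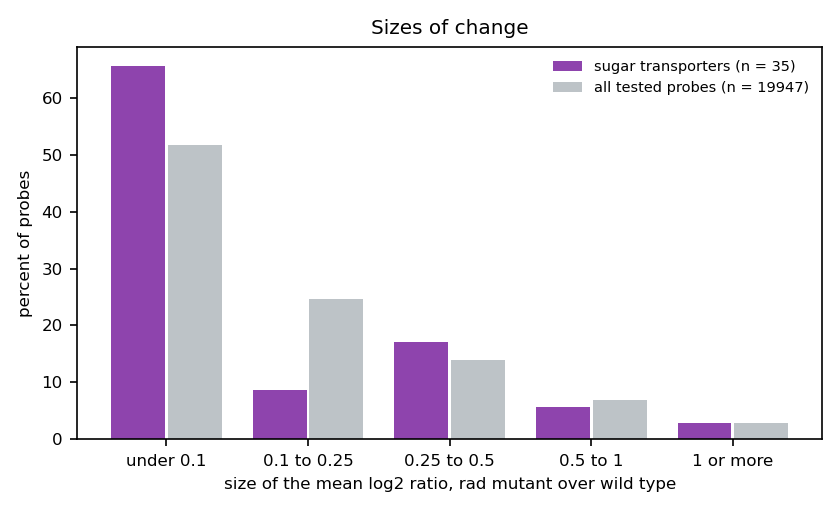
Percent of probes by the size of their mean log2 ratio (sign aside), for the 35 tested sugar transporters and for all 19947 tested probes. Among sugar transporters 65.7% lie under 0.1, against 51.7% of all tested probes, and in each set under 3% reach 1.

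Background correction set the size of the called ratios but not their sign. For AK069202 and AK071180 the ratio rose most when the constant was dropped, as described above. For the brighter AK073967 and AK065430 it moved little, to 0.77 and 0.41 from scanner-processed signals. In AK106658 the fall passed 2-fold without the constant (-1.03). All 9 calls held under each of the 4 ways of treating background.

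**Figure D4:**
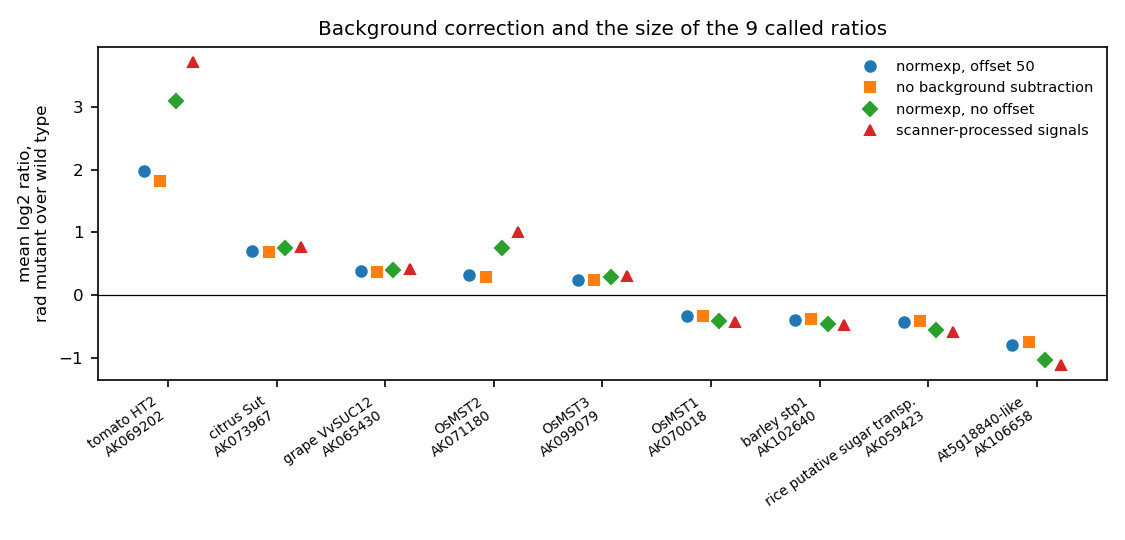
Mean log2 ratio of *rad* mutant over wild type for the 9 called sugar transporter cDNAs under 4 treatments of background (symbols). AK069202 spreads from 1.82 with no background subtraction to 3.71 with scanner-processed signals, whereas AK065430 stays between 0.37 and 0.41.

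The dye orientations differed for several members, though not in the direction of any call. In a limma test of the ratio with the mutant in Cy5 minus that with the mutant in Cy3, 8 of 35 transporters were called, against 27.0% of all tested probes. Of these 8 transporters AK069202, AK073967 and AK102640 were among the 9 called between genotypes and had the same sign in both orientations. AK069202 read 1.90 with the mutant in Cy5 and 2.07 with it in Cy3, and AK073967 read 0.57 and 0.84. Opposite signs in the 2 orientations occurred in 11 transporters, none of them called between genotypes. The OsMST1 cDNA AK108820, for example, read 0.13 with the mutant in Cy5 and -0.14 with it in Cy3. In the ratios above each replicate holds both orientations equally.

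**Figure D5:**
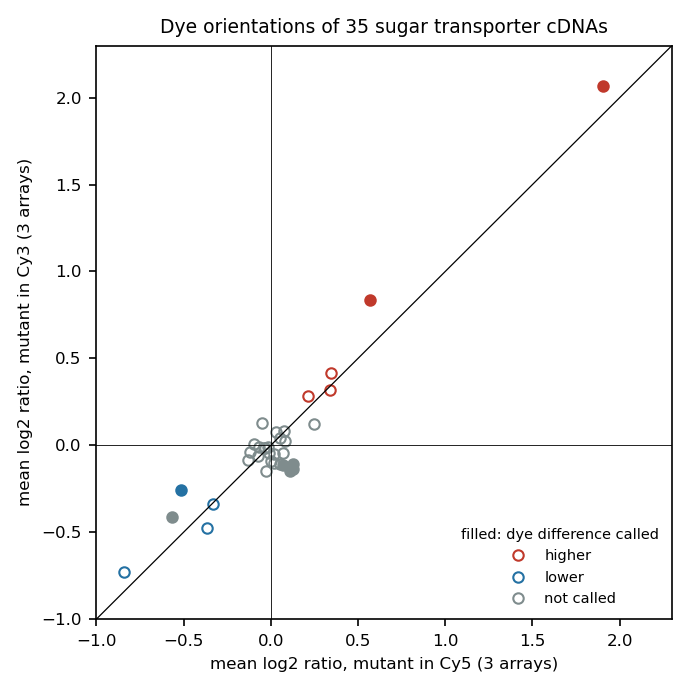
Mean log2 ratio over the 3 arrays with the mutant in Cy5 (horizontal) against the 3 with the mutant in Cy3 (vertical) for 35 sugar transporters, coloured by the genotype call and filled where the dye difference was called. All 9 called members lie in the quadrants where both orientations share a sign.

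Genes that sit beside transport in sugar use were examined as lists of text patterns, for comparison with the 24.7% of all tested probes called either way. Invertases, which split sucrose into hexoses, showed 2 higher and 2 lower of 10 tested. A pair of cDNAs with 1 rice invertase description rose, AK103334 at 0.98 ± 0.04 (adjusted p = 0.00260) and AK061240 at 0.56 ± 0.16 (adjusted p = 0.0123). A ryegrass-like soluble acid invertase (AK072245) was lower at -0.66 ± 0.04 (adjusted p = 0.00371). A cell wall invertase like maize Incw2 (AK072276) fell most in the list, at -1.66 ± 0.67 (adjusted p = 0.0194). Of 10 probes for sucrose synthase and sucrose-phosphate synthase 2 were higher and 2 lower. The higher ones were a maize-like sucrose synthase (AK099406, 0.23 ± 0.04) and a sugarcane-like sucrose-phosphate synthase (AK065273, 0.24 ± 0.06). The lower ones were a bamboo-like sucrose synthase (AK100334, -0.67 ± 0.25) and another sugarcane-like sucrose-phosphate synthase (AK071732, -0.21 ± 0.06). These lists moved in both directions.

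Hexokinases and fructokinases phosphorylate the hexoses after entry. Probes with these names were called lower in 4 of 12 cases (33.3%) and higher in 1 (8.33%), without the phosphofructokinases that the pattern also caught. Over all tested probes 10.1% were lower and 14.6% higher. Among the 4 lower, AK065338 (-0.39 ± 0.20) is described only as a fructokinase-like protein. Rice hexokinase I (AK065207) read -0.29 ± 0.05 (adjusted p = 0.0129) and rice hexokinase II (AK059853) -0.40 ± 0.22 (adjusted p = 0.0447). The higher 1 was a spinach-like hexokinase of the plastid envelope (AK067988), at 1.58 ± 0.78 (adjusted p = 0.0304).

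Among proton pumps, 1 of 3 plasma membrane H+-ATPase probes was higher, AK072909 at 1.21 ± 0.27 (adjusted p = 0.00677). This pump builds the gradient that SUT and STP symporters use. The other 2 (AK066738 and AK110494) read -0.06 and -0.07 and were not called. Of 7 vacuolar ATPase probes tested 1 was higher (AK100543, 0.63 ± 0.11) and 1 lower (AK063178, -0.27 ± 0.07). In the whole pump list 18.2% were called higher and 9.09% lower, against 14.6% and 10.1% of all tested probes. The remaining pump probe, like an H+-ATPase of Medicago (AK068699), read -0.13 ± 0.05 and was not called.

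The pattern for alpha-amylase, which releases sugar from starch, caught 16 tested probes, of which AK106723 is described as an alpha-amylase inhibitor (0.13 ± 0.32, not called). Of the other 15, 1 was higher (6.67%) and 2 were lower (13.3%), against 14.6% and 10.1% of all tested probes. Their median was -0.026. Many of these 15 have a description that names only a promoter region of an alpha-amylase gene. The counts and the median are therefore those of text matches, and not all need be alpha-amylases. The higher cDNA (AK069098, 0.53 ± 0.15, adjusted p = 0.0118) is described only as Ramy1 and was caught by that name. AK069098 had signals of 330500, 296800 and 309300 in the mutant against 240600, 181700 and 226900 in wild type. It made up 98% of the summed signal of the list in the mutant and 96.8% in wild type. Without it and the inhibitor, a split chosen after its values were seen, the sum over 17 probes was 6159 to 6240 in the mutant against 6701 to 7011 in wild type. The 2 lower cDNAs were AK065152, like an Arabidopsis alpha-amylase (-0.36 ± 0.16), and the rice AK073487 (-0.16 ± 0.03).

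The plastid phosphate translocators left out of the transporters had 2 of 8 higher, both described as glucose-6-phosphate translocators (AK060577 at 0.39 ± 0.16 and AK062253 at 0.29 ± 0.13), and 0 lower. Called higher were thus 25%, against 14.6% of all tested probes, and called either way 25%, against 24.7%. Neither of the 2 mannitol or inositol transporter probes was called in limma (AK070417 at -0.06 and AK070476 at -0.07), and 0 had an unadjusted p under 0.05. Over all tested probes 7637 of 19947 had one.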

How the data were processed

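Values came from 6 Agilent two-colour arrays read with Feature Extraction, per the file headers. The deposited scanner files give mean spot and median background intensity per channel, processed intensity (background-subtracted and dye-normalized by the scanner software), a log10 ratio, and other values, flags of 0 or 1 per spot, that the authors' software set. The deposited value table holds log10 ratios that matched the scanner's within 5e-06, signed as mutant over wild type, with array medians of -0.000509 to 0.

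In R 4.3.3 with limma 3.58.1, intensities were corrected by normexp (offset 50) and loess-normalized within arrays, giving control spots a weight of 0. A probe was kept if the mutant or the wild-type channel was well above background on 4 or more of the 6 arrays and no array had an outlier spot (19947 of 21495). Dye pairs were averaged to 3 replicates, and their mean was tested against 0 by lmFit and eBayes (two-sided tests, Benjamini-Hochberg adjustment over all tested probes, called at adjusted p under 0.05). On simulated ratios of 19947 probes the fit recovered 84 of 100 changes of log2 size 1. Smaller changes, the size of most called transporters, were not simulated, so their recovery is not known. Signals are geometric means of the dye pair's processed intensities. The number of arrays limits precision.

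Titles mark each colour swap as the same numbered replicate. Deviations from the mean of a dye orientation correlated at 0.663 to 0.840 within numbers, against -0.662 to -0.115 between them. Because the deviations of an orientation sum to 0, values below 0 between numbers follow in part from the centring. The ratios themselves correlated at 0.88 to 0.90 within numbers and at 0.67 to 0.82 between them.

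Named were called members, members changed at least 2-fold and members with a rice gene name, or, in a family with none of these, the 2 with the smallest p. Others are given to account for every member. Members and lists were chosen with earlier results of these data known. None of the 39 cDNA accessions was matched in the gene table (0 of 39), so no positions are given. Alternatives covered background, normalization, filters, arrays, replicates left out, replicate blocks and the variance model.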

Additional observations from a re-analysis of the deposited data

Results flagged for a closer look

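The ratio differed between dye orientations in 8 of the 35 tested sugar transporters, by a limma test of the difference (mutant in Cy5 minus mutant in Cy3). It was negative for AK073967 (-0.27), AK102640 (-0.26), AK069202 (-0.16) and AK099716 (-0.15). It was positive for AK108820 (0.26), AK103266 (0.26), AK068280 (0.23) and AK070510 (0.18). Over all tested probes 27.0% were called in the same test. The 4 positive ones changed sign between orientations and were not called between genotypes.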

How the results depend on the processing

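The counts of 5 higher and 4 lower transporters stayed within 1.5 times under other background correction, normalization, filters on dim and outlier spots, single dye orientations and eBayes with trend and robust. With all 6 arrays and the replicate block they were 6 and 5, with and without a dye term, which added AK069679 and AK099716 and changed no other call. Leaving out 1 replicate gave 1 to 5 higher and 1 to 3 lower transporters, and over all probes 755 to 2746 higher and 429 to 1827 lower. The low counts came without replicate 1 or 2. Without replicate 3, in a fit with as few replicates, 5 transporters were higher and 3 lower, with 2746 and 1827 over all probes. The cause of this difference was not tested. With 1 probe for each of the 19 descriptions, the first by accession, 4 transporters were higher and 1 was lower. With all 39 matched probes, an alternative chosen after seeing the data, 5 were lower. The transporters' median ratio was -0.037 without the offset, -0.036 with median centring, 0.018 from mutant-in-Cy5 arrays alone and -0.042 from mutant-in-Cy3 arrays alone; the cause was not tested. No called member changed sign under any alternative run. AK069202 was not tested where both channels had to be above background on all 6 arrays. Dim signal limits 3 transporters, which were not tested, and the size of ratios of AK069202 and AK071180. It also limits dim members that were not called, among them AK070510, AK103266, AK101913, AK073105, AK070615, AK106745 and AK099432. There the added constant compresses ratios and their intervals.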
